A study of Mus musculus with 12 samples.

Results

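Interferon-stimulated genes are genes that cells switch on when an interferon binds its receptor. A list of 58 of them was followed in sorted mouse lung group 2 innate lymphoid cells (ILC2s), out of 22587 gene symbols named in the 2 deposited tables. The genes were matched by symbol and comprise 36 type I antiviral genes, 14 interferon-inducible GTPases and 8 genes of MHC class I processing. The table of the LAIR-1 knockout experiment listed 50 of the 58 and 48 had enough counts to be tested, out of 18601 genes listed and 14164 tested. The table of the LAIR-1 sorted fractions listed 57 and 52 were tested, out of 21361 listed and 14261 tested. Oas2 was listed in neither table, and Ifit1, Ifit3, Oasl1, Oasl2, Mx2, Ifi44 and Iigp1 were not listed in the knockout table.

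RNA sequencing was carried out on 12 libraries in 4 groups of 3. Every group shared the same activation: C57BL/6 mice, 8 weeks old, were dosed with IL-33 through the nose 3 times at 0.5 µg each, and the sorted cells then spent 24 hours in culture with 10 ng per mL of IL-2 and the same of IL-7. Wild-type ILC2s (WT; libraries 9, 10 and 11) were set against LAIR-1 knockout ILC2s (KO; libraries 13, 14 and 15). ILC2s of wild-type mice were also sorted on LAIR-1 into LAIR-1+ (libraries 1, 2 and 3) and LAIR-1- cells (libraries 7, 8 and 10), so both fractions are wild type, and WT alone names libraries 9, 10 and 11. LAIR-1 is an inhibitory receptor that binds collagen, and no such sort is given for the WT libraries. KO was compared with WT and LAIR-1- with LAIR-1+, each within its own table. The labels do not say that the replicates are separate animals, and the spread that the p-values measure is that of these libraries, which may be technical.

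Type I interferons signal through the receptor IFNAR and factors that include STAT2 and IRF9 and act at the interferon-stimulated response element (ISRE). Interferon gamma signals through its own receptor, acts at the gamma-activated sequence (GAS) and induces IRF1. The antiviral genes sense viral RNA, block its translation or degrade it. The GTPases, guanylate-binding proteins and immunity-related GTPases, attack the vacuoles of intracellular parasites and bacteria and are classically induced by interferon gamma in mice, and the MHC class I genes cut, transport and present peptides. In lung ILC2s, type I interferons, interferon gamma and IL-27 are known to restrain proliferation and type 2 cytokine output.

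The libraries held 18061470 to 20878649 estimated counts in the knockout table and 18885002 to 28290487 in the sorted table. Libraries within a group spread more in the knockout experiment, with a biological coefficient of variation of 0.505 against 0.135 in the sorted one. Lair1 was measured at 3.75, 11.1 and 7.66 CPM (counts scaled to library size) in WT 9, 10 and 11 and at 0.427, 0 and 3.28 CPM in KO 13, 14 and 15. The library labelled KO 15 thus held 67 Lair1 counts, close to the 70 counts of WT 9. The sorted fractions differed as labelled, with 8.71, 12.4 and 12.2 CPM of Lair1 in the positive and 1.10, 0.577 and 1.95 CPM in the negative libraries. The 15 ILC2 marker genes, among them Il5 and Id2, were all listed in both tables. They summed to 12553 to 13547.5 CPM in WT and 14369 to 17683 CPM in KO libraries, so every KO sum was the higher. Il5 weighed heavily in these sums, ranging from 4400 to 5374 CPM across the WT libraries and from 7592 to 9845 CPM across the KO libraries. Gene by gene the list went both ways. In KO, 4 of the 15 were higher without overlap, Il5 among them, while Areg, Gata3, Id2 and Kit were lower without overlap. The sums were 11182 to 12481 CPM in LAIR-1+ and 11319 to 11942 CPM in LAIR-1- libraries. By the test used below, Arg1 fell and Il2ra, Klrg1 and Icos rose in LAIR-1- cells, and none of the 15 passed in KO against WT.

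Promoter sequence was at hand for 43 of the 58 genes (RefSeq, GRCm38.p6), as windows from 250 bases before to 50 bases after a transcript start. The ISRE core was searched as GAAANNGAAA and GAS as TTCNNNGAA, where N is any base, on both strands, with overlap between the motifs allowed. The ISRE core was present for 22 of the 43 genes (51.2%) against 3.99% of all 27025 genes in the table, and GAS for 16 of the 43 (37.2%) against 9.55%. The groups differed in these shares: 9 of 10 GTPases held the ISRE core, against 12 of 27 type I antiviral genes and 1 of 6 MHC class I genes, the last being B2m. A match describes letters in the window and shows no binding. The windows of the 4 genes with the smallest p-values between the sorted fractions follow, 5′ to 3′ on the strand of the gene, so that the letters behind the motif counts can be read for the genes whose values stand out most: Plscr1 (chr9:92249944-92250243, + strand), Ddx58 (chr4:40239776-40240075, - strand) and Gbp7 (chr3:142530086-142530385, + strand) fell and Ifitm3 (chr7:141010695-141010994, - strand) rose. Capitals mark motif matches.
Plscr1: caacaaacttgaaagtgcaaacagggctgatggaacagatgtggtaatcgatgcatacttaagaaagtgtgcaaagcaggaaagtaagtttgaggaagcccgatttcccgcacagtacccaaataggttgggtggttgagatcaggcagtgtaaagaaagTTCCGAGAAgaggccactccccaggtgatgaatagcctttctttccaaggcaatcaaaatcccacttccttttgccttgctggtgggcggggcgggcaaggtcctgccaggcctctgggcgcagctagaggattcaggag
Ddx58: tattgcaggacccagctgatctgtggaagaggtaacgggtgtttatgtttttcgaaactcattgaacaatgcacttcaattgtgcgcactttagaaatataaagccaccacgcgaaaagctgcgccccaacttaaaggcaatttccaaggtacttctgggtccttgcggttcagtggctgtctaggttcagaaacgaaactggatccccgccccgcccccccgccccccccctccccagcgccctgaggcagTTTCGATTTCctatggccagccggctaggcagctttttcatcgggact
Gbp7: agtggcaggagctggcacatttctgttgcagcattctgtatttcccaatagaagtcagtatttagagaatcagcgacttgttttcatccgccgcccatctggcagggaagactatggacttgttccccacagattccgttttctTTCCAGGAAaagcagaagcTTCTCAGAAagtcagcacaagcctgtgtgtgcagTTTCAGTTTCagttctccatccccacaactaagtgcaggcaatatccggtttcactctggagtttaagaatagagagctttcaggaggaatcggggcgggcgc
Ifitm3: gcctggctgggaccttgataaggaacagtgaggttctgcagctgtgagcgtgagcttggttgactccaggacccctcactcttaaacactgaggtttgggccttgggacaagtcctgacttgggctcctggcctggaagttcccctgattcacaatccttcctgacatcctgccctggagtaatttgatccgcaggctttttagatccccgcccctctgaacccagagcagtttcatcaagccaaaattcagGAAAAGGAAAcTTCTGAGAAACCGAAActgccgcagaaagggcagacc
Plscr1 holds a single GAS match and no ISRE core. Ddx58 holds the ISRE core on the opposite strand, just after the start. Gbp7 holds an ISRE core 53 bases before the start and GAS matches at 106 and 87 bases before it. Ifitm3, the gene that moved the other way, also holds both motifs, with 2 ISRE cores and a GAS match that overlaps the second core. Of the 12 genes with a window that passed the test between the fractions, 9 held the ISRE core, as did 11 of the 27 that were tested and did not pass.

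**Figure D1:**
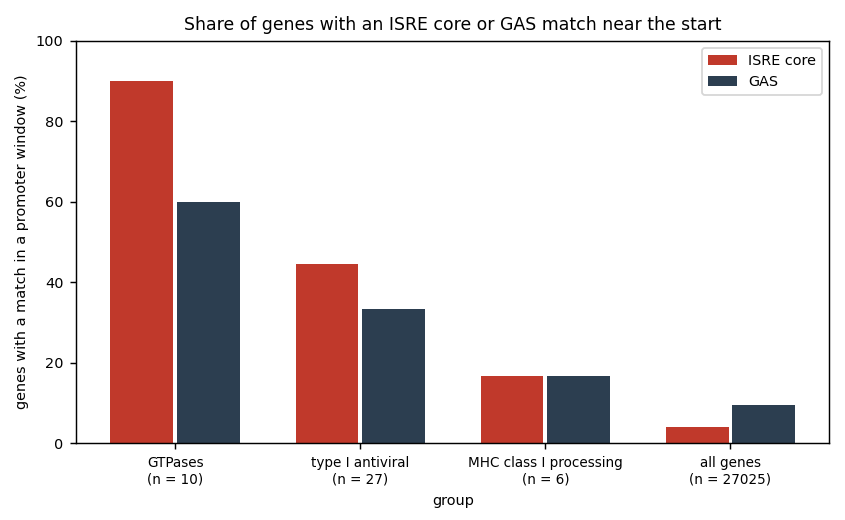
Share of genes (y axis, percent) with at least 1 ISRE core (red) or GAS (blue) match in a promoter window, for the GTPases, the type I antiviral genes, the MHC class I genes and all genes of the table (x axis, with the number of genes that have a window). The ISRE bar falls from 90.0% for GTPases to 44.4% for antiviral genes and 16.7% for MHC class I genes, and is 3.99% for all genes.

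Between the sorted fractions, 7 of 30 antiviral genes and 7 of 14 GTPases fell in LAIR-1- cells, and none of the 8 MHC class I genes did. By sign alone, 28 antiviral genes, 14 GTPases and 8 MHC class I genes had a fold change below 0. Of the 52 genes tested, 14 fell and 1 rose in LAIR-1- cells (edgeR's quasi-likelihood test, Benjamini-Hochberg adjusted p under 0.05 over all 14261 genes), against 4.01% of all genes past it, 2.71% falling and 1.3% rising. At an unadjusted p under 0.05, 31 were lower (9.33% of all genes). The log2 fold change, LAIR-1- minus LAIR-1+, was below 0 for 50 of the 52 (49.0% of all genes), and its median was -0.60 against 0.005 over all genes. The groups did not overlap for 19 genes that were lower and 1 that was higher in LAIR-1- cells, against 11.3% and 9.64% of all genes. In bulk RNA, fewer cells that express a gene and less RNA per cell cannot be told apart. The strength of these calls differed: 6 of the 15 passed with each of the 6 libraries left out in turn (Plscr1, Ddx58, Gbp7, Ifitm3, Usp18 and Gbp2), and the other 9 did not.

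**Figure D2:**
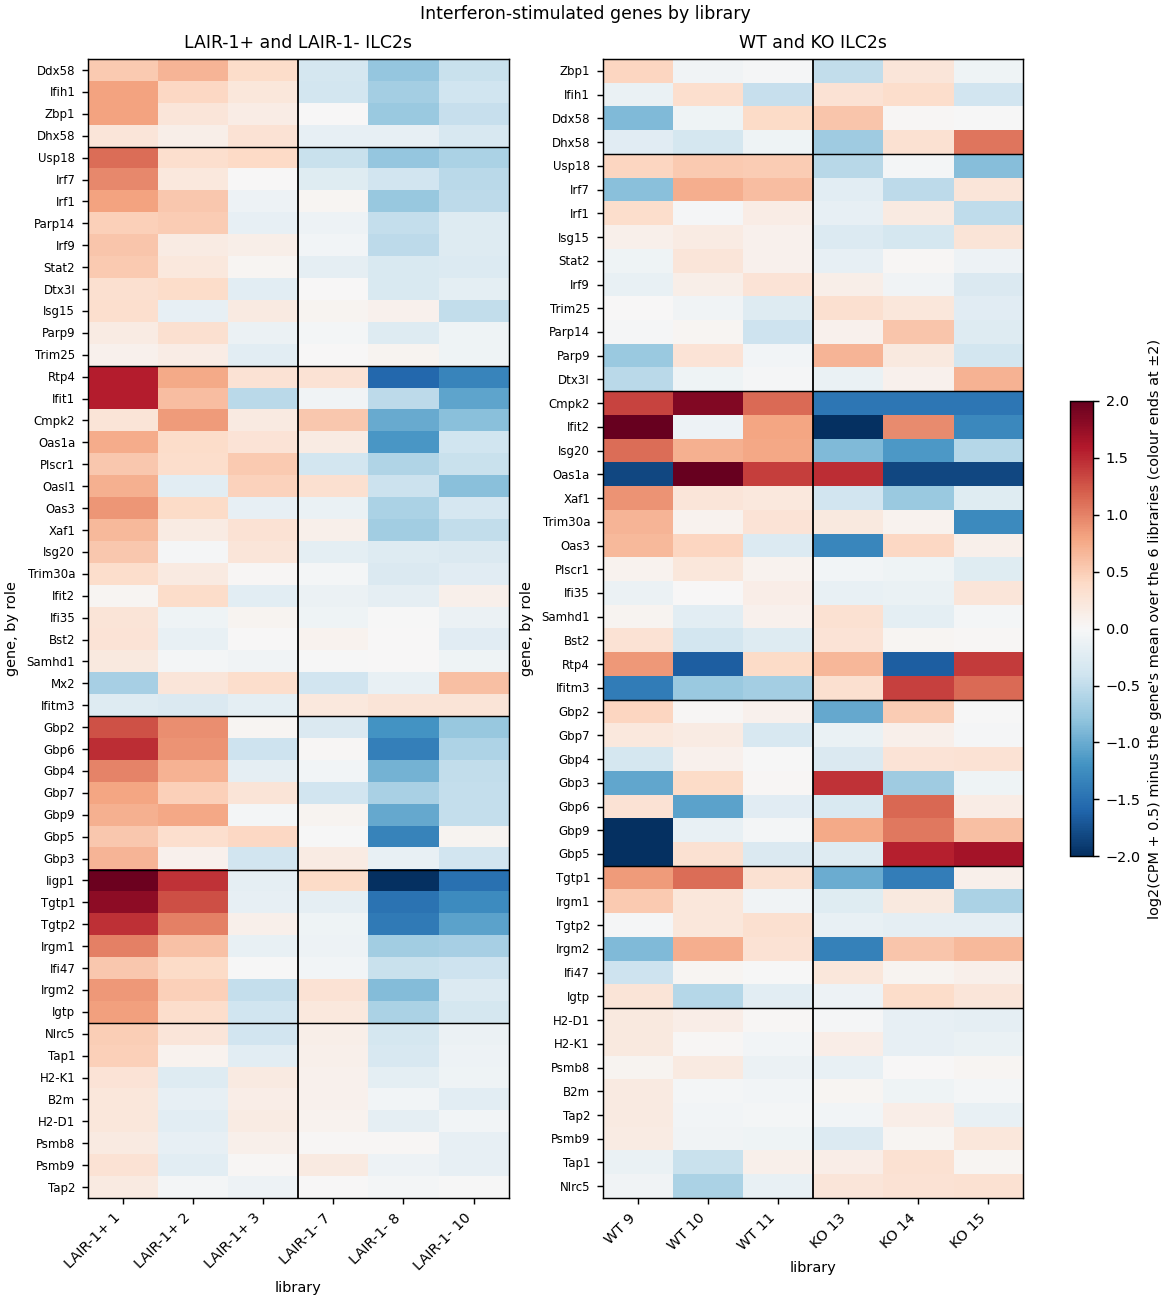
Colour shows log2(CPM + 0.5) of each tested gene minus its mean over the 6 libraries of its experiment, for the sorted fractions (left) and for WT and KO (right); columns are libraries, rows are genes grouped by role from top to bottom as sensors, regulators, effectors, GBP GTPases, IRG GTPases and MHC class I genes, and the colour ends at ±2. At left, LAIR-1+ 1 and 2 are mostly red (median log2 deviations of 0.54 and 0.35), LAIR-1+ 3 and LAIR-1- 7 are near 0 (0.02 and 0.01), and LAIR-1- 8 is the bluest (-0.51).

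The cytosolic sensors of foreign nucleic acid fell in 3 of 4 cases, and all 4 were lower in every LAIR-1- library than in any LAIR-1+ library. Ddx58 encodes RIG-I, which detects uncapped viral RNA. It stood at 91.1, 102 and 81.7 CPM in LAIR-1+ libraries 1, 2 and 3 and at 49.7, 37.1 and 46.7 CPM in LAIR-1- libraries 7, 8 and 10. The fractions were cleanly apart, and the fall was 2.06-fold (log2 -1.04 ± 0.12 SE, adjusted p = 0.000503). Ifih1 encodes MDA5, which detects long double-stranded RNA. It stood at 14.3, 10.7 and 9.38 CPM in LAIR-1+ and 6.05, 4.78 and 5.92 CPM in LAIR-1- libraries, again without overlap, and fell by 1.03 on the log2 scale (SE 0.20, adjusted p = 0.0126, and 0.0674 without LAIR-1+ 1). Zbp1, a sensor of Z-form nucleic acid that can trigger cell death, stood at 110.4, 74.2 and 69.6 against 63.1, 37.4 and 45.3 CPM. Its fall of 0.80 (SE 0.20, adjusted p = 0.0431) was lost without any 1 of LAIR-1+ libraries 1 and 2 and LAIR-1- libraries 8 and 10, with adjusted p of 0.0680 to 0.190, and DESeq2 did not call it (adjusted p = 0.125). Dhx58, encoding the regulator LGP2, stood at 7.72, 7.00 and 8.03 against 5.68, 5.72 and 5.05 CPM and did not pass the threshold (log2 -0.47 ± 0.18 SE, adjusted p = 0.222).

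Of the 10 regulators, 3 fell in LAIR-1- cells and all 10 had a fold change below 0, with a median of -0.55. Usp18 removes the ubiquitin-like protein ISG15 from its targets and damps the type I interferon receptor. It stood at 22.7, 13.04 and 13.6 CPM in LAIR-1+ and 7.31, 5.77 and 6.37 CPM in LAIR-1- libraries. LAIR-1+ 1 was the highest, and every LAIR-1- library was below every LAIR-1+ library, a 2.53-fold fall (log2 -1.34 ± 0.22 SE, adjusted p = 0.00513). Of the factors that act at the ISRE, Stat2 stood at 68.3, 54.7 and 48.7 against 41.8, 38.1 and 39.1 CPM (log2 -0.53 ± 0.12 SE, adjusted p = 0.0347) and Irf9 at 71.5, 54.7 and 52.6 against 46.6, 33.5 and 40.6 CPM (log2 -0.57 ± 0.14 SE, adjusted p = 0.0495). Neither overlapped between fractions, yet both calls were lost on leaving out 1 library. Stat2 passed only without LAIR-1+ 3 and gave adjusted p of 0.0789 to 0.156 without any other library. Irf9 gave 0.0837 to 0.220 without any 1 of LAIR-1+ libraries 1 and 2 and LAIR-1- libraries 8 and 10. Irf9 overlaps Rnf31, a gene on the same strand that did not pass (adjusted p = 0.567).

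The other 7 regulators did not pass, with adjusted p from 0.0566 for Irf1 to 0.953 for Trim25. Irf1, the first-wave target of interferon gamma, stood at 207, 171 and 109.9 CPM in LAIR-1+ and 121, 69.7 and 81.5 CPM in LAIR-1- libraries, so that LAIR-1- 7 was above LAIR-1+ 3 (log2 -0.85 ± 0.22 SE, adjusted p = 0.0566). Irf7, which amplifies type I interferon production, stood at 24.6, 14.3 and 12.4 against 10.4, 9.34 and 8.39 CPM with no overlap (log2 -0.87 ± 0.23 SE, adjusted p = 0.0622), and DESeq2 called it (adjusted p = 0.00633). Parp14, an ADP-ribosyltransferase, stood at 40.3, 41.2 and 25.5 against 26.7, 20.5 and 23.99 CPM and DESeq2 called it too (adjusted p = 0.0194; edgeR 0.0995). Parp9 and Dtx3l form a complex and overlap on opposite strands. Dtx3l stood at 65.8, 68.4 and 45.3 against 53.2, 42.6 and 46.1 CPM (log2 -0.34 ± 0.15 SE, adjusted p = 0.295). Parp9 stood at 64.3, 71.9 and 53.1 against 56.1, 47.98 and 54.3 CPM (log2 -0.26 ± 0.12 SE, adjusted p = 0.320). Trim25, a ubiquitin ligase for RIG-I, had -0.03 ± 0.12 SE, and Isg15 was low throughout, at 3.79, 2.54 and 3.37 against 3.05, 3.10 and 1.91 CPM.

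Among the 16 tested effectors of the antiviral response, 1 fell and 1 rose. Plscr1, phospholipid scramblase 1, had the smallest p-value of all 52. It stood at 254, 225 and 253 CPM in LAIR-1+ libraries 1, 2 and 3 and at 136, 115 and 129 CPM in LAIR-1- libraries 7, 8 and 10. The libraries of a fraction lay close together and the fractions far apart, a 1.92-fold fall (log2 -0.94 ± 0.08 SE, adjusted p = 0.000114). Ifitm3, a membrane protein that blocks fusion of enveloped viruses, went the other way, from 51.6, 50.5 and 53.9 CPM in LAIR-1+ to 71.5, 73.96 and 73.7 CPM in LAIR-1- libraries. Every LAIR-1- library was above every LAIR-1+ library (log2 0.49 ± 0.08 SE, adjusted p = 0.00500). Its neighbours of the same family, outside the 58, rose too: Ifitm1 stood at 12.7, 18.2 and 28.3 against 40.5, 41.8 and 43.3 CPM (adjusted p = 0.0152, and 0.0531 or more without LAIR-1+ 2 or LAIR-1- 10). Ifitm2 stood at 21.4, 32.5 and 29.6 against 41.7, 48.2 and 44.3 CPM (adjusted p = 0.0198, and 0.0570 or more without LAIR-1+ library 1 or LAIR-1- library 8 or 10).

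The classic type I interferon effectors were scarce in both fractions. Ifit1, which binds viral RNA lacking a methylated cap, stood at 3.84, 1.75 and 0.504 CPM in LAIR-1+ and 0.894, 0.525 and 0.209 CPM in LAIR-1- libraries (adjusted p = 0.201). Rsad2 (viperin), Mx1 and Ifit3 were listed but had too few counts to be tested, at no more than 0.616 CPM in any library. By its deposited gene type Mx1 is a polymorphic pseudogene. Oasl2 and Ifi44 were not tested either and had no count in any LAIR-1- library. In LAIR-1+ libraries 1, 2 and 3 Oasl2 had 19, 5 and 0 counts and Ifi44 had 1, 10 and 3, too few for a fold. Rtp4, a chaperone for receptors, stood at 7.58, 4.09 and 2.83 against 2.84, 0.420 and 0.592 CPM and was called by DESeq2 (adjusted p = 0.0128) and not by edgeR (0.117). Xaf1, a pro-apoptotic protein, gave the same split at 23.3, 16.6 and 18.1 against 15.9, 8.92 and 10.3 CPM (DESeq2 0.0168, edgeR 0.0892). Isg20, an exonuclease for viral RNA, stood at 19.8, 13.4 and 16.1 against 11.7, 11.2 and 10.97 CPM with no overlap and an adjusted p of 0.102.

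Trim30a stood at 26.4, 23.3 and 20.9 against 19.9, 16.8 and 17.5 CPM (adjusted p = 0.160), with no overlap.

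Other effectors at high level overlapped between the fractions. Ifi35 stood at 136, 107 and 118 against 107, 114 and 105 CPM (log2 -0.15 ± 0.09 SE). Per kilobase of exon, Ifi35 averaged 69.6 CPM in LAIR-1+ and 62.8 in LAIR-1- cells, and Bst2 (tetherin, which holds budding virus at the membrane) 60.7 and 56.6, beside 99.01 and 51.5 for Plscr1. The log2 fold change of Bst2 was -0.10 ± 0.12 SE. Samhd1, which depletes nucleotides, had -0.06 ± 0.09 SE.

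The guanylate-binding proteins (GBPs), large GTPases that coat and disrupt pathogen vacuoles, fell in 3 of 7 cases and all 7 were below 0, with a median of -1.03. Gbp7 stood at 130.3, 105 and 89.96 CPM in LAIR-1+ and 57.3, 47.98 and 53.7 CPM in LAIR-1- libraries. It did not overlap and fell 2.04-fold (log2 -1.03 ± 0.13 SE, adjusted p = 0.000719). Gbp2 stood at 52.8, 41.6 and 22.1 against 17.5, 9.13 and 12.5 CPM, wider within the LAIR-1+ fraction but still without overlap (log2 -1.57 ± 0.29 SE, adjusted p = 0.00903). Gbp4, the most abundant GBP per kilobase (61.4 CPM in LAIR-1+ cells), stood at 611, 499 and 272 against 296, 161 and 219 CPM. LAIR-1- 7 exceeded LAIR-1+ 3, and its fall (log2 -1.03 ± 0.26 SE, adjusted p = 0.0468) gave adjusted p of 0.130 to 0.209 without any 1 of LAIR-1+ libraries 1 and 2 and LAIR-1- libraries 8 and 10 and 0.121 with DESeq2. Gbp6 (116, 78.4 and 31.2 against 42.5, 15.9 and 27.1 CPM, adjusted p = 0.0882) and Gbp9 (41.5, 43.6 and 24.7 against 26.4, 12.2 and 17.97 CPM, adjusted p = 0.0649) also had LAIR-1- 7 above LAIR-1+ 3 and did not pass. Gbp5 stood at 11.1, 9.46 and 10.1 against 7.37, 2.62 and 7.76 CPM (adjusted p = 0.240) and Gbp3 at 26.6, 17.3 and 12.3 against 18.3, 14.7 and 12.4 CPM (adjusted p = 0.624). The coding sequence of Gbp6 is 98.4% identical to that of Gbp10, and Gbp4 overlaps Gbp8 and Gbp9 on its strand, so the split of reads among these genes is uncertain. Gbp6 and Gbp10 summed to 161, 108 and 45.1 CPM in LAIR-1+ libraries, against 57.8, 21.3 and 35.7 CPM in LAIR-1- libraries.

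The immunity-related GTPases (IRGs), small GTPases that act on the same vacuoles, fell in 4 of 7 cases, and again all 7 were below 0 (median -1.02). On chromosome 11, Tgtp1 (48985327-48994173), Tgtp2 (49057194-49064207), Ifi47 (49076587-49096975) and Irgm1 (48861968-48871684, positions of the deposited table, mm10) lie near each other. Tgtp2 stood at 381, 277 and 148 CPM in LAIR-1+ and 130.1, 51.5 and 65.7 CPM in LAIR-1- libraries, and Tgtp1 at 98.9, 69.6 and 25.2 and 24.9, 9.87 and 11.5 CPM. LAIR-1+ 3 was just above LAIR-1- 7 for both, so the groups touch without overlap. The falls were 3.26-fold (log2 -1.71 ± 0.34 SE, adjusted p = 0.0154) and 4.21-fold (log2 -2.07 ± 0.43 SE, adjusted p = 0.0187). The coding sequences of Tgtp1 and Tgtp2 differ at 4 of 1245 bases, so their separate values are uncertain, and their sum is given too, 480.1, 346 and 173 CPM in LAIR-1+ and 155, 61.4 and 77.3 CPM in LAIR-1- libraries. Ifi47 stood at 249.9, 223 and 170.4 against 165, 126 and 129 CPM (log2 -0.62 ± 0.14 SE, adjusted p = 0.0261). Irgm1, a regulator of the other IRGs, stood at 243, 181 and 109 against 113, 74.5 and 76.2 CPM (log2 -1.02 ± 0.24 SE, adjusted p = 0.0352; DESeq2 0.0938). All 4 calls were lost without any 1 of LAIR-1+ libraries 1 and 2 and LAIR-1- libraries 8 and 10, with adjusted p of 0.0649 to 0.0904 for Tgtp1, 0.0527 to 0.0779 for Tgtp2, 0.0877 to 0.134 for Ifi47 and 0.109 to 0.156 for Irgm1.

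Iigp1, another vacuole-directed IRG, had the lowest log2 fold change of the 52 (-2.13 ± 0.63 SE) and did not pass. It stood at 28.2, 19.7 and 6.05 CPM in LAIR-1+ and 9.15, 1.21 and 2.12 CPM in LAIR-1- libraries, with LAIR-1- 7 above LAIR-1+ 3, and its adjusted p was 0.0973. Igtp, the most abundant IRG per kilobase (98.99 CPM in LAIR-1+ cells), stood at 280.0, 201 and 119.5 against 183, 102 and 123 CPM (adjusted p = 0.341). Irgm2, which overlaps Igtp on the same strand, stood at 44.4, 33.9 and 17.2 against 29.6, 12.97 and 19.98 CPM (adjusted p = 0.405).

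**Figure D3:**
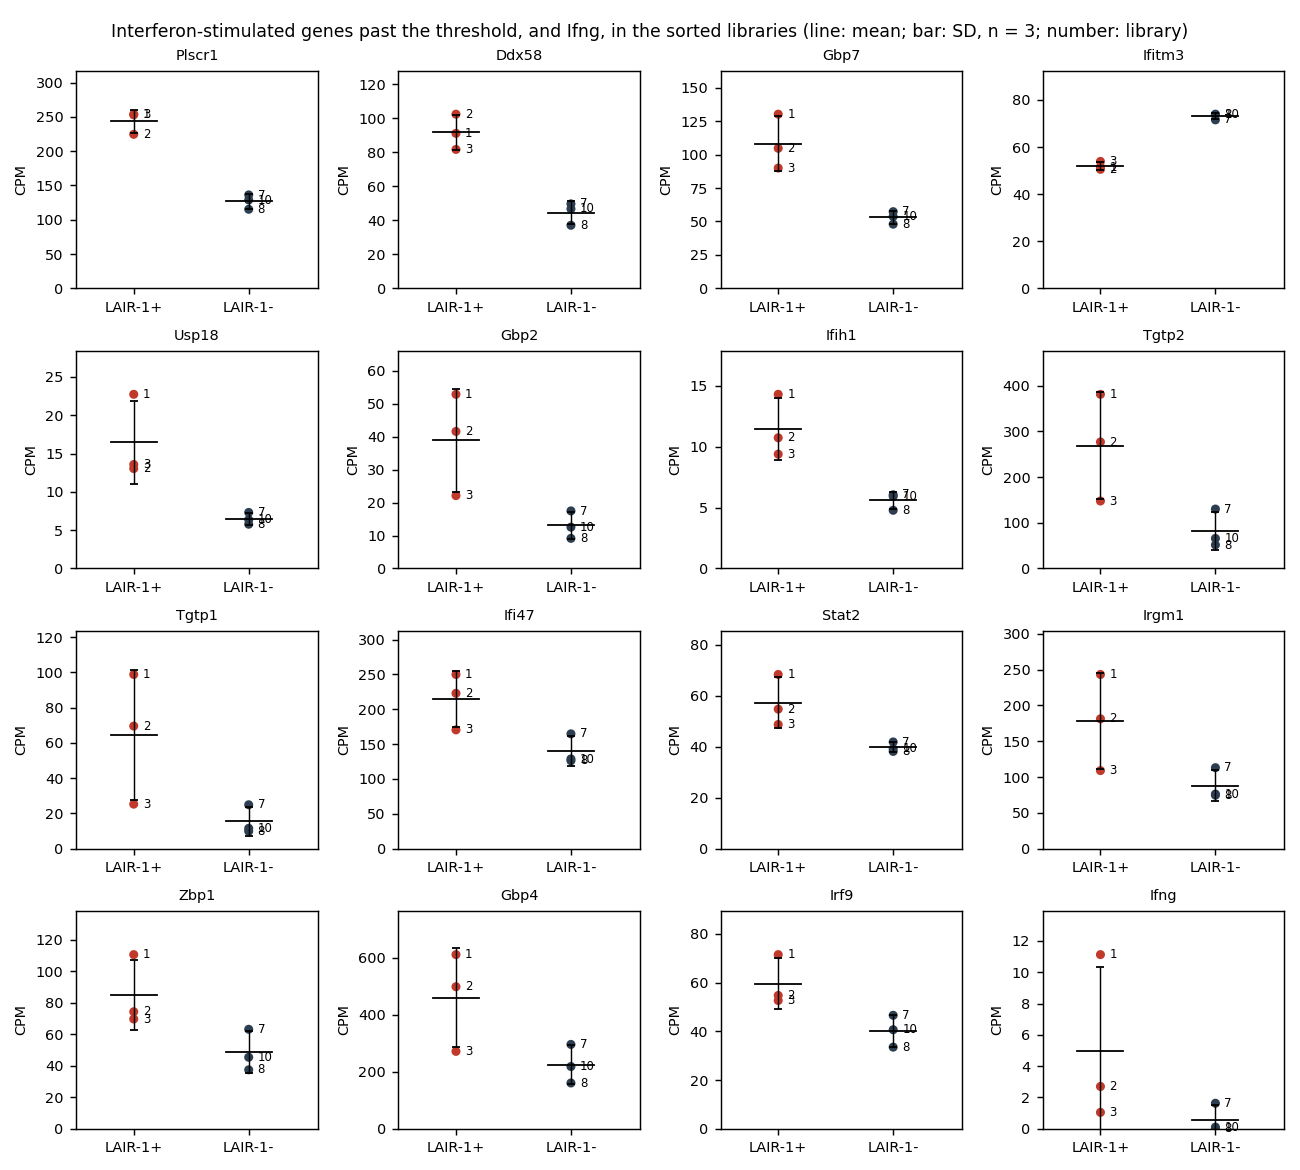
CPM (y axis, linear from 0) in each LAIR-1+ (red) and LAIR-1- (blue) library for the 15 genes past the threshold, in order of p, and for Ifng; numbers beside points are libraries, lines are means and bars are SD (n = 3). Plscr1, Ddx58, Gbp7 and Ifitm3 form tight clusters, while for Tgtp1, Tgtp2, Irgm1 and Gbp4 library LAIR-1+ 3 lies nearer to LAIR-1- 7 than to LAIR-1+ 1.

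Single libraries thus stood apart across the list. LAIR-1+ 1 was the highest of the 6 libraries for 41 of the 52 genes (15.1% of all genes tested), and LAIR-1- 8 the lowest for 31 (22.95% of all genes). For the 14 GTPases both counts were 13. The median log2 deviation of the GTPases from their own mean was 0.93, 0.64 and -0.14 in LAIR-1+ 1, 2 and 3 and -0.03, -0.99 and -0.49 in LAIR-1- 7, 8 and 10, so LAIR-1+ 3 and LAIR-1- 7 were alike. For the 4 sensors the same medians were 0.67, 0.34 and 0.28 against -0.27, -0.73 and -0.43, which separates the fractions. Without LAIR-1+ 1 the count of genes past the threshold was 6, and without LAIR-1+ 3 it was 22. It was 7 on leaving out LAIR-1+ library 2 or LAIR-1- library 8 or 10, and 19 on leaving out LAIR-1- 7.

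Of 21 interferon ligand genes, Ifng alone was listed in the sorted table and none in the knockout table. Ifng stood at 11.1, 2.70 and 1.05 CPM in LAIR-1+ 1, 2 and 3 (235, 68 and 27 counts) and at 1.63, 0 and 0.104 CPM in LAIR-1- 7, 8 and 10. LAIR-1+ 1 was by far the highest and LAIR-1- 7 exceeded LAIR-1+ 3. The difference did not pass (log2 -3.16 ± 1.04 SE, adjusted p = 0.143), and its part in the other genes' values was not tested. The interferon receptor genes did not pass either: log2 fold changes were -0.15 ± 0.12 SE for Ifnar1, -0.23 ± 0.08 for Ifnar2, 0.21 ± 0.09 for Ifngr1 and -0.33 ± 0.12 for Ifngr2.

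All 8 genes of MHC class I processing had a fold change below 0 and none passed edgeR's threshold, the smallest adjusted p being 0.506 and the median log2 fold change -0.13. None had an unadjusted p under 0.05, and neither DESeq2 nor limma-voom called any of them. B2m, the invariant light chain, stood at 3187, 2433 and 3008 CPM in LAIR-1+ and 2895, 2632 and 2353 CPM in LAIR-1- libraries (log2 -0.13 ± 0.10 SE). The heavy chain H2-K1 stood at 2552, 1764 and 2389 against 2252, 1859.8 and 2006 CPM (log2 -0.13 ± 0.12 SE). The other heavy chain H2-D1 stood at 5471, 4041 and 5228 against 4893, 4109 and 4488 CPM (log2 -0.13 ± 0.10 SE). The fractions overlapped for all 8, and LAIR-1+ 1 was the highest library for each of them. Tap1, a subunit of the peptide transporter, had the lowest p of the group, at 314, 239 and 197 against 243, 181 and 211 CPM (log2 -0.24 ± 0.15 SE), and Nlrc5, the transactivator of MHC class I genes, stood at 105, 88.2 and 57.1 against 81.7, 58.6 and 69.2 CPM (log2 -0.26 ± 0.19 SE). The other subunit Tap2 had -0.02 ± 0.08 SE and the immunoproteasome subunits Psmb8 and Psmb9 -0.08 ± 0.09 and -0.07 ± 0.12 SE. Per kilobase of exon, LAIR-1+ cells averaged 3344 CPM of B2m, 1905 of H2-D1 and 761 of H2-K1, beside 225 for Psmb8 and 9.83 for Nlrc5.

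Other genes of the interferon response were read from lists outside the 58. Of 71 further interferon-induced genes, 62 were listed and 57 tested. Of these 57, 10 fell and 2 rose (Ifitm1 and Ifitm2), against 2.71% and 1.3% of all genes. The fold change was below 0 for 48 (49.0% of all genes), and the median log2 fold change was -0.36. Those that fell and passed with every library left out were Ly6e (134, 116 and 138 against 85.1, 69.2 and 67.8 CPM), a surface protein that restricts coronaviruses, Slfn2 (171, 164 and 162 against 118, 109.5 and 114 CPM), a member of the Schlafen family, and Ifi27 (76.6, 55.7 and 70.03 against 44.1, 42.6 and 40.1 CPM). The other 7, each lost without LAIR-1+ 1, without LAIR-1- 10 and, Ly6a apart, without 1 or 2 more libraries (adjusted p of 0.0505 to 0.217), were Ly6a, H2-T23, Sp110, Ube2l6, Ddx60, Slfn8 and Gbp10. H2-T23, which encodes the nonclassical class I molecule Qa-1, stood at 547, 405 and 468 against 362, 321 and 327 CPM (log2 -0.49 ± 0.10 SE, adjusted p = 0.0164, and 0.0524 or more without LAIR-1+ library 1 or LAIR-1- library 8 or 10). None of 17 receptor and signalling genes and none of 11 tested sensors upstream of interferon passed.

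Markers of other cells moved between the fractions too. Of 18 monocyte and macrophage genes 13 were listed. They summed to 572 to 642 CPM in LAIR-1+ and 487 to 491 CPM in LAIR-1- libraries. Ccr2 and Plac8 had the highest mean CPM among them, and 5 of the 13 stayed under 1 CPM in every library. Lyz2, which encodes lysozyme, stood at 22.6, 11.1 and 20.6 against 2.47, 1.84 and 0 CPM, and Lyz2, Itgam, Cd14, Ly6c2 and Ccr2 fell while Plac8 rose. C1qa, C1qb, C1qc, Marco and Fcgr1 were not listed. The 9 listed epithelial genes of 10 summed to 36.9 to 116 CPM in LAIR-1+ and 26.4 to 33.7 CPM in LAIR-1- libraries and went both ways. Scgb1a1, Krt8, Krt18 and Cdh1 fell, while Epcam rose, from 20.7, 18.8 and 19.9 to 28.7, 24.04 and 31.6 CPM. Pecam1, an endothelial marker, rose too, from 23.4, 26.1 and 23.6 to 40.3, 38.5 and 40.6 CPM. Only 4 of the 10 endothelial and fibroblast genes were listed, and 3 of these stayed under 1 CPM in every library. Cdh5, Cldn5 and Kdr were among those not listed. The 6 listed B cell genes of 9 summed to 9.52 to 15.5 CPM in LAIR-1+ and 16.7 to 40.1 CPM in LAIR-1- libraries with none past the threshold, and Ighm made up 23.8 CPM of the highest sum, in LAIR-1- 7. Of 11 NK cell and ILC1 genes, 8 were listed, Ifng among them. They summed to 24.7 to 41.8 CPM in LAIR-1+ and 53.5 to 67.6 CPM in LAIR-1- libraries. Gzmb had the highest mean CPM of the 8 and was the only 1 past the threshold, higher in LAIR-1- cells. Without overlap, 3 of the 8 were lower and 1 was higher, against 11.3% and 9.64% of all genes tested. The 6 listed plasmacytoid dendritic cell genes of 10 summed to 52.8 to 55.1 and 46.9 to 55.0 CPM, with Siglech, a defining marker, not listed. The 7 listed dendritic cell genes of 10 summed to 115 to 133 and 83.7 to 101 CPM, with none past the threshold. Without overlap, 1 of these 7 was lower and 1 was higher in LAIR-1- cells. The part of these cells in the interferon-stimulated genes was not tested.

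In KO against WT, no interferon-stimulated gene passed edgeR's threshold, where 0.00706% of all 14164 genes (1 gene) did. At an unadjusted p under 0.05 there were 10 of 48 (8 lower, against 4.41% of all genes, and 2 higher), against 8.37% of all genes in either direction. DESeq2 called 3 (Isg20, Ifitm3 and H2-D1), and 3.04% of the 9770 genes to which it gave an adjusted p. Some of the 48, among them Cmpk2, Gbp5 and Ifit2, got no adjusted p from DESeq2. By limma-voom and limma-trend none was called. The log2 fold change, KO minus WT, was below 0 for 26 of the 48 (49.6% of all genes), with a median of -0.05 against 0.004 over all genes. The groups did not overlap for 8 genes lower and 4 genes higher in KO, against 7.97% and 8.2% of all genes. By role, the median was -0.16 over 27 antiviral genes, 0.19 over 13 GTPases and -0.05 over 8 MHC class I genes.

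The smallest p-values in this comparison belonged to antiviral effectors. Isg20 stood at 23.2, 17.3 and 18.1 CPM in WT 9, 10 and 11 and at 5.40, 4.43 and 6.80 CPM in KO 13, 14 and 15. Every KO library was far below every WT library (log2 -1.81 ± 0.30 SE, edgeR adjusted p = 0.214, DESeq2 0.000121). Ifitm3 stood at 9.54, 15.3 and 16.1 CPM in WT and 32.5, 68.03 and 57.3 CPM in KO libraries, higher in all 3 KO libraries (log2 1.95 ± 0.35 SE, edgeR adjusted p = 0.229, DESeq2 2.51e-05). Its neighbour Ifitm2 stood at 16.3, 28.2 and 22.4 against 43.2, 64.9 and 67.6 CPM (log2 1.39 ± 0.28 SE, adjusted p = 0.276). Cmpk2, a mitochondrial nucleotide kinase, had 56, 80 and 50 counts in WT and 0 in each KO library, at least 67.0-fold lower against a floor of 3 counts over the KO group (edgeR adjusted p = 0.193; DESeq2 gave none). Zeros of this kind need care in this table: for 5 of the 50 listed genes (Gbp5, Ifit2, Oas1a, Rsad2 and Rtp4) and 10.6% of all listed genes, a library stood at 0 while another of its own group had at least 30 counts. In the sorted table this held for none of the 57 and 0.201% of all genes. Xaf1 stood at 22.02, 13.8 and 13.4 against 8.68, 6.73 and 9.69 CPM (log2 -0.97 ± 0.33 SE, adjusted p = 0.488) and Plscr1 at 303, 337 and 302 against 277, 272 and 244 CPM (log2 -0.25 ± 0.09 SE, adjusted p = 0.519), both without overlap. Ifi35 stood at 101, 111 and 121 against 98.9, 101 and 131 CPM.

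**Figure D4:**
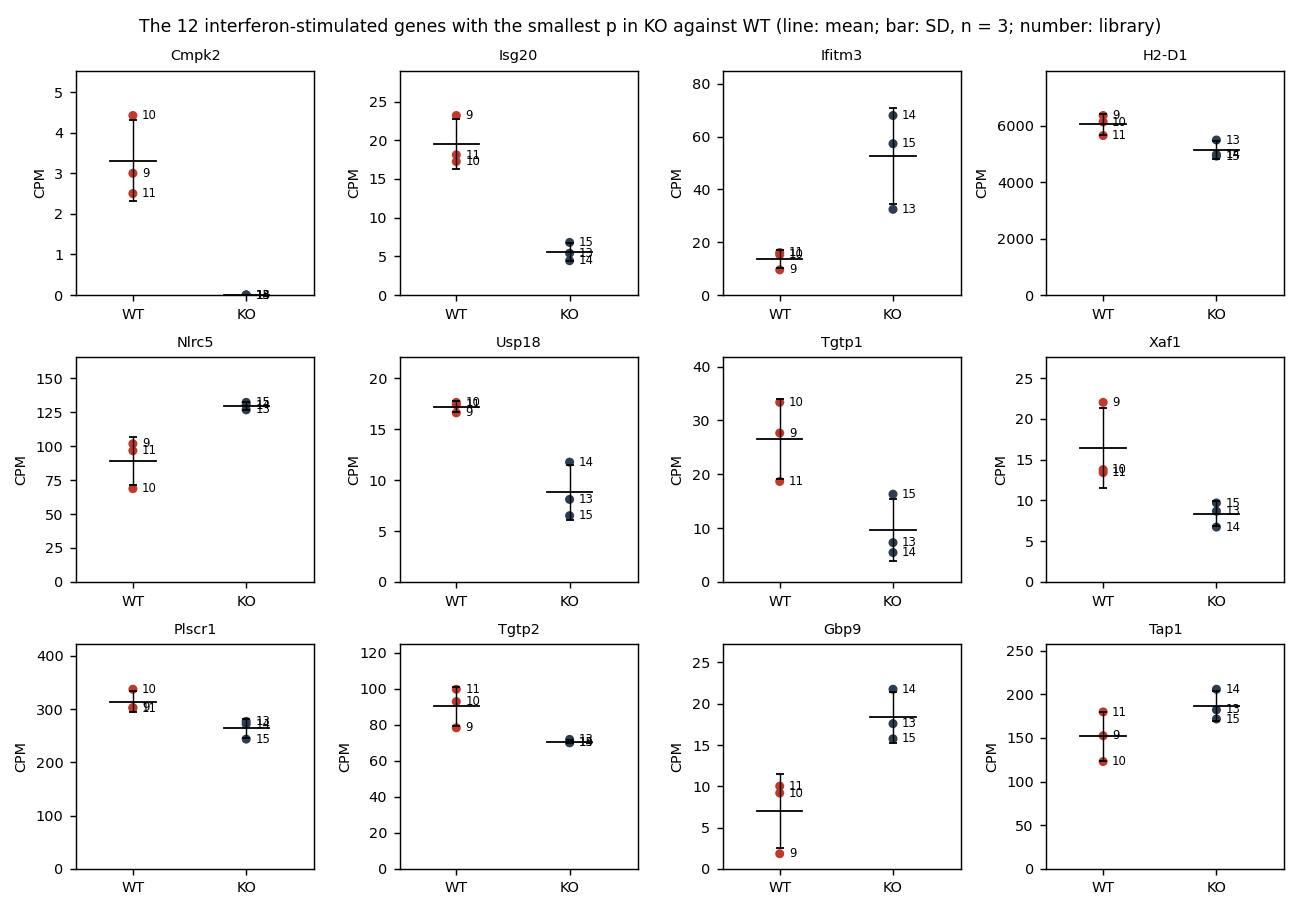
CPM (y axis, linear from 0) in each WT (red) and KO (blue) library for the 12 interferon-stimulated genes with the smallest p in KO against WT; numbers beside points are libraries, lines are means and bars are SD (n = 3). Cmpk2, Isg20, H2-D1, Usp18, Tgtp1, Xaf1, Plscr1 and Tgtp2 lie lower and Ifitm3, Nlrc5 and Gbp9 higher in KO without overlap, and Tap1 overlaps.

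None of the regulators and sensors passed. Usp18 stood at 16.6, 17.6 and 17.4 CPM in WT and 8.11, 11.8 and 6.51 CPM in KO libraries, the only regulator whose groups did not overlap (log2 -0.97 ± 0.31 SE, adjusted p = 0.459). Irf1 (98.7, 76.00 and 85.6 against 68.6, 87.1 and 53.9 CPM) and Irf7 (3.97, 12.7 and 11.8 against 6.45, 5.04 and 8.95 CPM) overlapped, as did Dtx3l (24.2, 33.5 and 35.03 against 32.2, 37.6 and 57.8 CPM), Trim25 (30.7, 29.04 and 25.6 against 38.5, 36.1 and 26.1 CPM) and Parp9 (34.7, 70.4 and 56.1 against 93.3, 66.96 and 45.1 CPM). Among the sensors, Ddx58 stood at 50.1, 87.9 and 121 against 137, 94.6 and 92.7 CPM, with WT 9 the lowest and KO 13 the highest library (log2 0.33 ± 0.33 SE, adjusted p = 0.870). Ifih1 stood at 9.11, 12.8 and 7.16 against 12.4, 12.9 and 7.54 CPM, Zbp1 at 55.2, 38.7 and 39.98 against 28.8, 48.2 and 38.2 CPM and Dhx58 at 4.98, 4.54 and 5.55 against 3.41, 7.44 and 13.1 CPM, all overlapping.

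Of the 13 GTPases tested in KO cells, 8 had a fold change above 0 and 5 below 0, and none passed. Tgtp1 stood at 27.7, 33.4 and 18.7 against 7.30, 5.45 and 16.3 CPM (log2 -1.45 ± 0.47 SE, adjusted p = 0.467) and Tgtp2 at 78.3, 92.9 and 99.7 against 71.9, 69.96 and 70.2 CPM (log2 -0.35 ± 0.13 SE, adjusted p = 0.535). They summed to 106, 126 and 118 CPM in WT and 79.2, 75.4 and 86.5 CPM in KO libraries, lower in every KO library. Gbp9 lay the other way, at 1.82, 9.18 and 10.01 against 17.6, 21.8 and 15.8 CPM (log2 1.39 ± 0.60 SE, adjusted p = 0.611), as did Ifi47 at 75.7, 104 and 101 against 118, 105 and 109 CPM (log2 0.24 ± 0.15 SE). Gbp6 (35.5, 13.6 and 24.8 against 23.3, 65.02 and 32.3 CPM) and Gbp2 (20.8, 15.7 and 16.3 against 7.30, 22.2 and 15.3 CPM) overlapped. Gbp4 (149.8, 203 and 189 against 155, 231 and 233 CPM) did so too, as did Gbp5 (0, 4.37 and 2.70 against 2.80, 11.01 and 11.9 CPM), Gbp7 (71.4, 69.4 and 49.1 against 55.9, 66.2 and 60.8 CPM) and Irgm1 (137, 111 and 90.6 against 80.1, 109 and 60.8 CPM).

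In the MHC class I group, H2-D1, the gene of the second classical heavy chain, stood at 6354, 6127 and 5645 CPM in WT and 5488, 4972 and 4918 CPM in KO libraries, lower in every KO library by a small margin (log2 -0.24 ± 0.06 SE, edgeR adjusted p = 0.403, DESeq2 0.0450). Nlrc5 stood higher, at 102, 68.8 and 96.7 against 127, 130.3 and 132 CPM, with the KO libraries close together (log2 0.54 ± 0.16 SE, adjusted p = 0.441). B2m (2848, 2457 and 2441 against 2604, 2378 and 2453 CPM), H2-K1 (2399.6, 2138 and 2012 against 2286, 1876 and 1899 CPM) and Tap1 (153, 123 and 179.9 against 182, 206 and 172 CPM) overlapped.

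Mitochondrially encoded mRNA separated the genotypes. Over 13 genes it summed to 5539, 5497 and 3311 CPM in WT 9, 10 and 11 and to 6823, 6248 and 6593 CPM in KO 13, 14 and 15, so every KO library was above every WT library, and WT 11 was the lowest. For 8 of the 13 genes the KO libraries were higher without overlap, against 8.2% of all genes tested, and none passed the threshold. The 7 listed epithelial genes of 10 summed to 49.2 to 132 CPM in WT and 17.9 to 35.9 CPM in KO libraries. Epcam alone was lower without overlap, at 49.1, 52.1 and 55.9 against 16.9, 17.3 and 25.4 CPM (adjusted p = 0.186), and the upper end of the WT sum held 58.8 CPM of Scgb1a1 in WT 11. The part of either in the values above was not tested. Without WT 11, and without any other library, no interferon-stimulated gene passed. Of the further interferon-induced genes 52 were tested in KO against WT, and none passed, nor did any of 17 receptor and signalling genes or 9 upstream sensors. The fold change was below 0 for 36 of these 52 (49.6% of all genes), and the median log2 fold change was -0.19. The groups did not overlap for 8 of the 52 that were lower and 4 that were higher in KO, against 7.97% and 8.2% of all genes.

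Set side by side, 48 genes were tested in both comparisons, which share no libraries. Of the 14 that fell in LAIR-1- cells, 10 had a fold change below 0 and 4 above 0 in KO cells, where none passed. Ifitm3 was higher in both, with log2 fold changes of 0.49 ± 0.08 and 1.95 ± 0.35 SE. Usp18 (-1.34 ± 0.22 and -0.97 ± 0.31 SE) and Tgtp1 (-2.07 ± 0.43 and -1.45 ± 0.47 SE) were below 0 in both. Ddx58 (-1.04 ± 0.12 and 0.33 ± 0.33 SE) and Gbp4 (-1.03 ± 0.26 and 0.19 ± 0.19 SE) had opposite signs. Of 13 GTPases tested in both, 8 were below 0 in the sorted and above 0 in the KO comparison. Whether the comparisons differ was not tested for any gene.

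**Figure D5:**
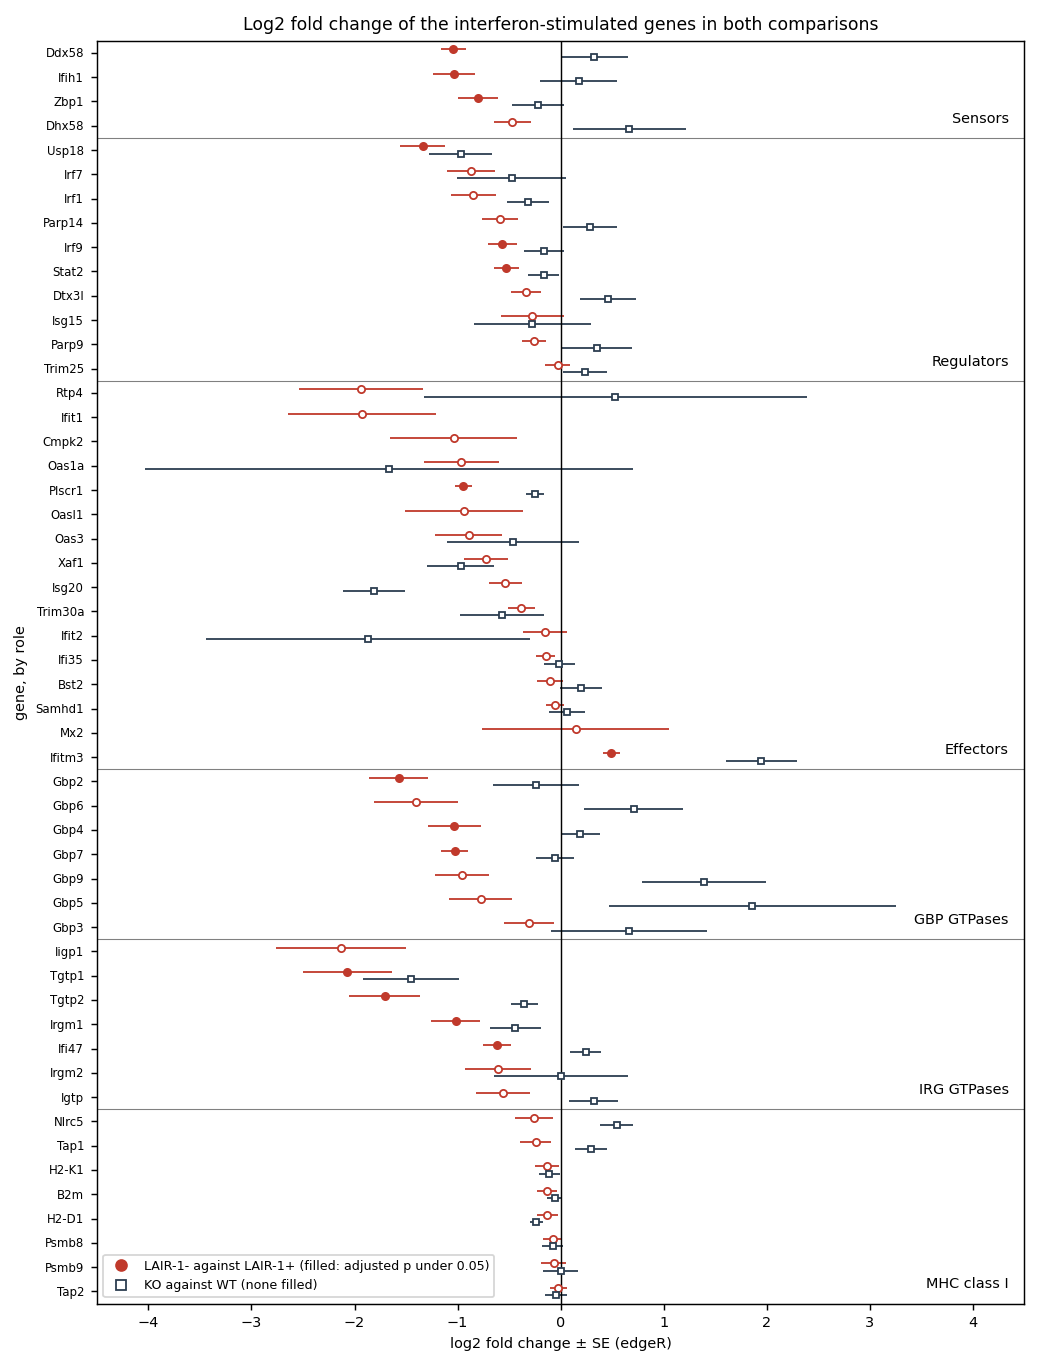
Log2 fold change ± SE from edgeR (x axis) of each tested gene (y axis, grouped by role) in LAIR-1- against LAIR-1+ (red circles, filled where the adjusted p is under 0.05) and KO against WT (blue squares, none past the threshold). Cmpk2, with no count in KO, has no square; nearly all red circles lie left of 0, while the blue squares lie on both sides with wider bars.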

How the data were processed

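RNA was sequenced from 12 libraries of sorted mouse lung ILC2s. Per the submitters' processing notes, bcl2fastq 2.17.1.14, STAR 2.5.3a, Partek and the mm10 genome were used. The sources used here name neither the counting tool nor its annotation or use of strand, so genes that overlap on either strand (22 of the 57 listed genes in the sorted table, 20 of 50 in the other) may share reads. For each experiment the authors deposited genes' estimated counts and, in another table, CPM, which equals the count scaled to a library total plus 0.0001. Estimated counts were not whole within 0.001 in 47.9% of cases for KO and WT and in 44.4% for the sorted fractions, and they were rounded here.

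The 58 genes, their role lists and the other lists were chosen with earlier results of these data known. Each table was analysed from its own 6 libraries with filterByExpr, TMM scaling and the quasi-likelihood test of edgeR 4.0.16 (R 4.3.3). P-values were adjusted by Benjamini-Hochberg across every tested gene, and 0.05 was the threshold. CPM in the text are scaled by TMM. Levels per kilobase use the exon union of GENCODE M21. SE of log2 fold changes come from the F statistic. Any of the 58 genes could be named, and values in each library were given for genes past the threshold, for up to 4 further genes per role with the smallest p in each comparison, and for the 2 of each role at the highest mean CPM. The test was tried on simulated counts first. Alternatives were DESeq2 1.42.0, limma-voom and limma-trend (limma 3.58.1), other scalings and filters, and leaving out each library. A floor of 3 counts over a group bounds folds against 0 and, like all depth limits, covers counting error only. Coding sequences of GENCODE M21 were aligned with Biopython 1.88 to find near-identical genes (Tgtp1 and Tgtp2 99.7%, Ifit3 and Ifit3b 99.1%, Gbp6 and Gbp10 98.4%, Oas1a and Oas1g 96.7% identical), whose reads the counting could split. Proteins were not used here. The check for zeros beside at least 30 counts was chosen after seeing the data. A gene of the signalling list is not reported here.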

Additional observations from a re-analysis of the deposited data

How the results depend on the processing

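Between the sorted fractions, 15 of the interferon-stimulated genes passed with edgeR, and 10 to 17 did under other scalings, the lower filters and other tools, of which DESeq2's 16 held 12 of the 15. With genes at a mean of at least 50 CPM (25 of the 58 tested) 6 passed. The median log2 fold change was -0.26 over these 25, against -0.60 over the 52 of the main test, which are a different set of genes. Leaving out 1 library gave 6 to 22 genes past the threshold. Of all genes 572 passed, 250 among those averaging 50 CPM or more, and 333 to 516 with 1 library left out (the count was 333 on leaving out LAIR-1+ 1, 369 on leaving out LAIR-1+ 2 and 374 on leaving out LAIR-1- 7). No called gene changed sign under any alternative run, while up to 7 uncalled ones did (without LAIR-1+ 1).

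In KO against WT, 0 interferon-stimulated genes passed, and 3 did with DESeq2. Of all genes 1 passed, while 5 did among genes averaging 5 CPM or more, 55 (30 lower and 25 higher) among those averaging 50 CPM or more, 297 with DESeq2 and 2 with limma-voom. With 1 library left out, the count ranged from 0 to 0. The causes of these differences were not tested. The labels pair no libraries between the groups compared, so no paired analysis was run. They do not say whether the LAIR-1+ and LAIR-1- fractions came from the same animals. The spread between KO and WT libraries and the low counts of Ifit, Mx and Oasl genes limit what could be detected at this depth.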

Other observations

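The type I antiviral genes were unevenly measured in these cells. Per kilobase of exon, LAIR-1+ cells averaged 13.01 CPM of Ddx58, 24.01 of Zbp1, 40.9 of Irf1 and 99.01 of Plscr1. They averaged 0.764 of Ifit1, 0.651 of Oas3, 0.0364 of Rsad2 and 0.113 of Mx1, a polymorphic pseudogene by its deposited gene type. The IRGs Igtp, Tgtp2 and Ifi47 averaged 98.99, 91.4 and 86.7 CPM per kilobase, and the GBPs Gbp4, Gbp7 and Gbp2 61.4, 19.3 and 15.4. No test was run on these levels.

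The share of the summed Tgtp1 and Tgtp2 reads given to Tgtp1 ran from 14.6% to 20.6% over the 6 sorted libraries and from 7.23% to 26.4% over the WT and KO libraries.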
